A study of Mus musculus with 6 samples.

Results

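The genes described here are 44 genes of protein folding, secretion and the unfolded protein response in the endoplasmic reticulum (ER), chosen by name and by role, out of 20659 genes with a named probe on the array. They fall into 5 roles, with 11 ER chaperones, 8 disulfide and proline isomerases, 9 genes of ER-associated degradation, 13 genes of the translocon, the translocon-associated protein complex and signal peptidase, and 3 sensors of the unfolded protein response. All 44 had a probe on the array, and 40 of them were bright enough to be compared between the groups.

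The measurements came from spleens of male ICR mice, an outbred strain, aged 8 weeks. Both groups received cyclophosphamide, an alkylating drug that suppresses immunity, by intraperitoneal injection at 40 mg/kg for 5 days. The model group (MOD group, arrays 1, 2 and 3) was then given distilled water by gavage. The SA-H group (arrays 4, 5 and 6) was given schisandrol A (SA), a lignan of the fruit of Schisandra chinensis, at 1000 mg/kg per day over 4 weeks, and no array of mice without cyclophosphamide was analysed here. The labels place the MOD samples at day 5 and the SA-H samples at day 28, and where those labels hold, treatment and day cannot be told apart. They also give 4 weeks of gavage for both groups, which is hard to square with MOD samples at day 5, and this was not resolved here. The labels name spleen as the source but speak of liver in the extraction protocol. The animal experiment in the study's methods gave the SA-H group another dose over another time, and the labels are followed here. Nothing in the labels says that the 3 arrays of a group came from separate mice, and the p-values then reflect variation among these samples alone, part of which may be technical.

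Proteins bound for the cell surface or for secretion enter the ER through the Sec61 channel as they are made, lose their signal peptide, and are folded there by chaperones and by enzymes that form disulfide bonds. Proteins that fail to fold are drawn back out and degraded. When unfolded proteins build up, the sensors Ern1, Eif2ak3 and Atf6 start the unfolded protein response, in which the factors Xbp1 and Atf6 raise the transcription of many folding genes. In the spleen this machinery is most prominent in plasma cells, which secrete antibody in bulk.

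Many of these genes share a short promoter sequence, the ER stress response element, through which Atf6 and Xbp1 act together with the factor NF-Y. It was searched for on both strands as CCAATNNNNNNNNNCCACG, in which N is any base, in the promoters of RefSeq (mouse build GRCm38.p6), which span 250 bases before to 50 bases after each transcription start. It was found in the promoters of 10 of the 36 listed genes with an entry in that table (27.8%), and in those of 37 of all 27025 genes (0.137%). Counted by promoter, it was in 39 of all 32851 (0.119%). The 10 genes were Calr, Canx, Creld2, Derl3, Dnajc3, Ero1b, Hsp90b1, which holds 2 copies, Hspa5, Pdia6 and Syvn1. The stretches of 6 genes are shown, chosen after the values were seen, namely those of the carriers with a fall past the p limit (Calr and Dnajc3), with the next lowest differences (Canx and Derl3) and with positive differences (Hspa5 and Syvn1). All are read 5′ to 3′ along the strand of the gene and end before the transcription start, and capitals mark the element. In Calr (chr8:84847035-84847133, minus strand) and Derl3 (chr10:75893202-75893300, plus strand) the element lay on the opposite strand and is seen as its reverse complement. In Canx (chr11:50325760-50325858, minus strand), Dnajc3 (chr14:118937787-118937885, plus strand), Hspa5 (chr2:34771985-34772083, plus strand) and Syvn1 (chr19:6046492-6046575, plus strand) it lay on the strand of the gene.
Calr: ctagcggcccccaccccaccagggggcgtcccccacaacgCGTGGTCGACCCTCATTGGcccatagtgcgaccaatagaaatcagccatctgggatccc
Dnajc3: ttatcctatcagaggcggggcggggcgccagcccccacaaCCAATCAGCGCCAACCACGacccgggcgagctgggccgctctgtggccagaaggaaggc
Canx: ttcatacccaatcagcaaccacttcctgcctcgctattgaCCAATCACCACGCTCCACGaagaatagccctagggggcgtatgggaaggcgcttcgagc
Derl3: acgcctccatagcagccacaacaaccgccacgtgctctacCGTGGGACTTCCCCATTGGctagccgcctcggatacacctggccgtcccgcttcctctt
Hspa5: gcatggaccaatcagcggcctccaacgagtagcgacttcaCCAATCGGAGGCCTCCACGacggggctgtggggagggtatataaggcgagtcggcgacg
Syvn1: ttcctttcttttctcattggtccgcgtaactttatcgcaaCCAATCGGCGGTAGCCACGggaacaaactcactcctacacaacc

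Counted from the transcription start, the element spanned bases −162 to −144 in Calr, −105 to −87 in Dnajc3 and −65 to −47 in Hspa5. The second form of the element (ATTGG, any base, then CCACG, on either strand) was found in Dnajb11, at bases 8 to 18 after the start, and in Herpud1. This is 2 of the 36 genes (5.56%) against 12 of all 27025 genes (0.0444%). The unfolded protein response element (TGACG followed by TGG, on either strand) was in the promoters of 0 of the 36 genes and of 193 of all genes (0.714%). These matches describe the letters only. Manf, Hyou1, Derl1, Sec61a1, Ssr2, Spcs3, Sec11c and Atf6 were not in the promoter table used here.

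On the arrays, 8 of the 40 compared genes were lower in the SA-H group than in the MOD group at an unadjusted p under 0.05 (20%) and 0 were higher. Of all 14957 tested genes and unnamed targets, 12.1% were lower and 11.7% higher, which is 23.8% in either direction. The 8 genes were the chaperones Calr, Dnajb9 and Dnajc3, the isomerases Pdia3 and P4hb, the degradation gene Derl1, and Ssr1 and Ssr2 of the translocon-associated protein complex. A fall of at least 2-fold was measured for 4 of them (10% of the 40, against 4.93% of all tested), and a rise of that size past the p limit for 0 (8.78% of all tested). The median log2 difference of the 40, SA-H minus MOD, was −0.33, against −0.02 over all tested genes. A difference below 0 was measured for 28 of the 40, against 51.2% of all tested. No listed gene passed an adjusted p of 0.05 in limma with Benjamini-Hochberg adjustment over all tested genes, nor did any other gene. With scan day as a block 1 listed gene (Calr) and 1161 of all tested passed it, and with scaling to the array median 2 (Calr and Dnajc3) and 1054 of all tested. The smallest adjusted p was 0.072 among the listed genes, for Calr, and 0.0622 over the whole array.

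**Figure D1:**
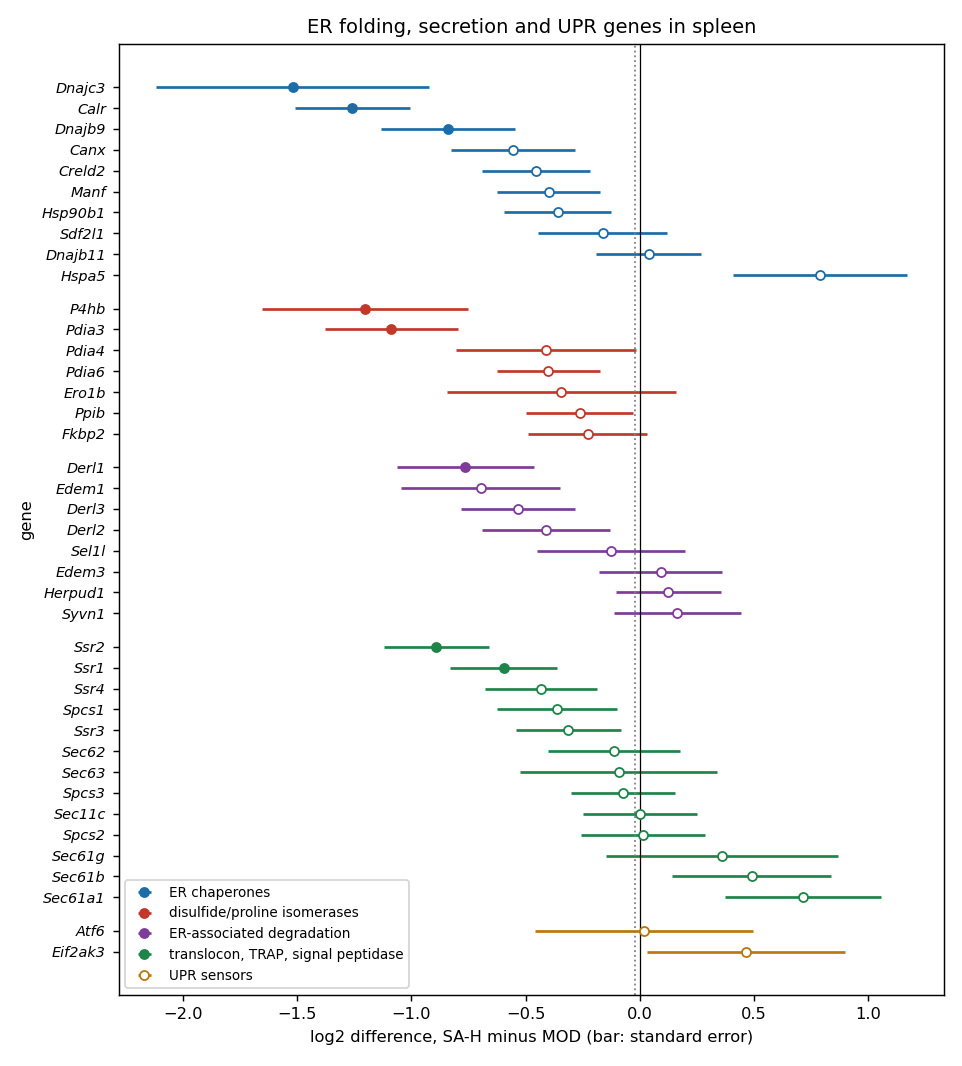
Log2 difference of the 40 compared genes, SA-H minus MOD, on the horizontal axis, grouped by role, with the standard error as a bar; filled points have an unadjusted p under 0.05 and the dotted line is the median of all tested genes. The 8 filled points lie between −1.52 (Dnajc3) and −0.60 (Ssr1), and the highest point is Hspa5 at 0.79.

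Levels are given as the log2 of the signal relative to the 75th percentile of the same array, and the level of one probe cannot be set against that of another. Calr, the calcium-binding lectin chaperone calreticulin, stood at 2.66, 2.64 and 2.76 in the MOD group and at 1.06, 1.54 and 1.67 in the SA-H group. All 3 SA-H values lay below all MOD values, and their range was wider. The log2 difference was −1.26 (SE 0.25), a 2.39-fold fall (limma, unadjusted p = 0.001, adjusted p = 0.072). Calnexin (Canx), the membrane-bound lectin chaperone that shares its clients, stood at 3.53, 3.55 and 3.34 against 3.23, 2.49 and 3.04. Its groups did not overlap, and its difference of −0.56 (SE 0.27) did not pass the p limit (adjusted p = 0.255).

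The levels of Dnajb9, a co-chaperone that binds the stress sensor Ern1, were −0.83, −0.99 and −0.54 in the MOD group and −2.09, −1.51 and −1.29 in the SA-H group. No SA-H array reached the lowest MOD array, and the difference was −0.84 (SE 0.29, adjusted p = 0.156). Dnajc3, a co-chaperone that also restrains Eif2ak3, stood at −1.41, −1.62 and −1.10 against −4.37, −2.21 and −2.12. The lowest of these values was that of SA-H array 4, on which the spot was not well above background. The difference was −1.52 (SE 0.60, adjusted p = 0.187) with all 6 arrays and −0.79 without SA-H array 4 (unadjusted p = 0.015). It was −0.42 with normexp background correction (unadjusted p = 0.136) and −0.25 in the authors' value table, and it did not pass the limit when any 1 MOD array was left out.

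Hspa5 (BiP), the main chaperone of the ER lumen and the usual marker of the unfolded protein response, had a difference of the opposite sign. It stood at 5.42, 5.50 and 5.20 in the MOD group and at 6.95, 5.53 and 6.01 in the SA-H group. The groups did not overlap, but SA-H array 5 lay just above MOD array 2, and SA-H array 4 stood far above the rest. The difference of 0.79 (SE 0.38) did not pass the limit (limma, unadjusted p = 0.075, adjusted p = 0.249). It was 0.40 without SA-H array 4. It passed with scan day as a block in the fit (1.02, unadjusted p = 0.012), and its sign turned in the authors' value table (−0.23).

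None of the other 5 compared chaperones passed the limit. Hsp90b1 (Grp94) differed by −0.36, Manf, a small secreted stress protein, by −0.40, Creld2, a chaperone with isomerase activity, by −0.46, Sdf2l1, a partner of Dnajb11, by −0.16 and Dnajb11, a co-chaperone of Hspa5, by 0.04. Groups that did not overlap were seen for Hsp90b1, Manf and Creld2. Hyou1, the nucleotide exchange factor of Hspa5, was well above background on SA-H array 5 alone and was not compared. Over the 10 compared chaperones, 3 were lower, 0 were higher, and the median difference was −0.43.

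**Figure D2:**
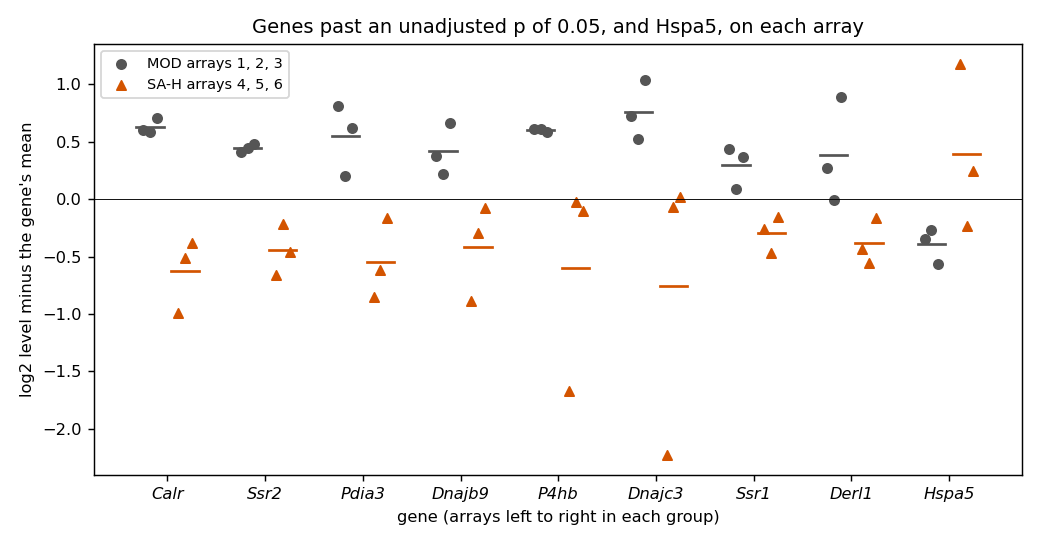
Level of the 8 genes with an unadjusted p under 0.05 and of Hspa5 on each of the 6 arrays, on the log2 scale and relative to the mean of each gene over the arrays, with the group mean as a short line; arrays run from left to right within each group. The MOD points lie above all SA-H points for the 8 genes and below them for Hspa5, and SA-H array 4 is far from the other SA-H arrays for P4hb, Dnajc3 and Hspa5.

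Among the isomerases, Pdia3, the disulfide isomerase that works with calreticulin and calnexin on glycoproteins, stood at 2.92, 2.31 and 2.73 in the MOD group and at 1.26, 1.49 and 1.95 in the SA-H group. The groups did not overlap. The difference was −1.09 (SE 0.29), a 2.13-fold fall (adjusted p = 0.101). P4hb, the archetypal protein disulfide isomerase, stood at 2.71, 2.71 and 2.68 against 0.42, 2.07 and 1.99. The MOD arrays lay almost at one level and the SA-H arrays all lay below it, SA-H array 4 by far the lowest. The difference was −1.20 (SE 0.45, adjusted p = 0.175), and −0.67 without SA-H array 4 (unadjusted p = 0.012). It did not pass the limit when any 1 MOD array was left out or with quantile normalization.

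The other 5 compared isomerases all had differences below 0 that did not pass the limit. These were −0.41 for Pdia4 and −0.40 for Pdia6, disulfide isomerases, −0.34 for Ero1b, which reoxidizes them, and −0.26 for Ppib and −0.23 for Fkbp2, proline isomerases. A dimmer probe of Pdia6 differed by −0.85 and passed the limit in limma on all probes bright enough to be compared (unadjusted p = 0.012). Fkbp11 was well above background on 2 MOD arrays and 1 SA-H array and was not compared. Over the 7 compared, 2 were lower, 0 were higher, and the median difference was −0.40.

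In ER-associated degradation, Derl1, a membrane protein of the channel that draws misfolded proteins out, had the smallest p on the brightest probes. It stood at 2.20, 1.91 and 2.81 in the MOD group and at 1.50, 1.37 and 1.76 in the SA-H group. The groups did not overlap, and the difference was −0.76 (SE 0.30, adjusted p = 0.187). Another probe of Derl1 that was also well above background differed by 0.02, so that the call rests on the brighter probe. The related Derl2 and Derl3 differed by −0.41 and −0.53. A dimmer probe of Derl2, well above background on 2 SA-H arrays, differed by −1.81 without overlap. That probe passed the limit in limma on all probes bright enough to be compared (unadjusted p = 0.0004), unlike the brighter probe. Derl3, whose expression is largely a mark of secretory cells, stood at 0.45, 0.27 and 0.30 against −0.51, −0.17 and 0.10, without overlap.

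The remaining degradation genes did not pass the limit. Edem1, a lectin that sends glycoproteins to degradation, stood at 1.52, 1.40 and 1.99 against 0.28, 1.24 and 1.31. Its SA-H arrays lay below all MOD arrays, and the difference was −0.70 (SE 0.35, adjusted p = 0.264). Edem3 differed by 0.09, the ubiquitin ligase Syvn1 by 0.17, its partner Sel1l by −0.13 and the scaffold Herpud1 by 0.13, all with overlapping groups. Edem2 was well above background on 2 MOD arrays and 1 SA-H array and was not compared. The 8 compared genes held 1 fall, 0 rises and a median difference of −0.27.

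The translocon and its partners had differences of both signs. Ssr2, the beta subunit of the translocon-associated protein complex, stood at 0.12, 0.16 and 0.20 in the MOD group and at −0.95, −0.50 and −0.74 in the SA-H group. The MOD group was tight and the SA-H group wider (standard deviation 0.04 against 0.23), and the groups did not overlap. The difference was −0.89 (SE 0.23, adjusted p = 0.097). Ssr1, the alpha subunit, stood at 2.86, 2.51 and 2.79 against 2.16, 1.95 and 2.27, again without overlap. Its difference was −0.60 (SE 0.23, adjusted p = 0.187), while its other probes differed by −0.32 and 0.37. Ssr3 and Ssr4, the gamma and delta subunits, differed by −0.31 and −0.43 with groups that did not overlap, and neither passed the limit.

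The subunits of the Sec61 channel had positive differences, of 0.71 for Sec61a1, 0.49 for Sec61b and 0.36 for Sec61g, and none of them passed the limit. For Sec61a1 and Sec61b the spot on SA-H array 5 was an outlier and was left out, so that these values rest on 2 SA-H arrays. Sec61a1, the pore itself, stood at 4.39, 3.73 and 3.97 against 4.45 and 5.04, without overlap. It passed the limit with scan day as a block, whereas in the authors' value table the difference was −0.50 (unadjusted p = 0.039). Sec61g stood at 6.06, 4.06 and 4.52 on the SA-H arrays, and the first of these is SA-H array 4. Sec62 and Sec63, which help the channel with proteins that enter after synthesis, differed by −0.11 and −0.09. A dimmer probe of each differed by more, by −1.17 for Sec62 and −1.24 for Sec63. Both passed the limit in limma on all probes bright enough to be compared (unadjusted p = 0.020 and 0.038). These probes were well above background on 1 and 2 SA-H arrays. The signal peptidase subunits Spcs1, Spcs2, Spcs3 and Sec11c differed by −0.36, 0.02, −0.07 and 0.00. A dimmer probe of Spcs3 differed by −0.58 without overlap and passed the limit in the same fit of all probes (limma, unadjusted p = 0.047). Of the 13 genes of this role, 2 were lower, 0 were higher, and the median difference was −0.09.

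Of the 3 sensors, 2 could be compared, and neither passed the limit. Eif2ak3 (PERK), the kinase that slows translation, stood at 0.53, 0.42 and 1.94 in the MOD group and at 1.17, 1.57 and 1.53 in the SA-H group. MOD array 3 was above every SA-H array, and the difference was 0.46 (SE 0.43, adjusted p = 0.522). Without MOD array 3 it was 0.96 and passed the p limit, and in the authors' value table it was −0.23. Atf6, the membrane-bound factor released by cleavage, stood at −2.51, −2.87 and −2.42 against −3.68, −2.21 and −1.85, and differed by 0.02 (SE 0.48, adjusted p = 0.982), or by −0.43 in the authors' value table. Its SA-H values lay on both sides of the MOD values, and the spot on SA-H array 4 was not well above background. Ern1 (IRE1), the nuclease that splices Xbp1 messenger RNA, stood at −3.85, −3.21 and −3.72 against −3.43, −3.17 and −3.11. It was well above background on 1 array of each group, and no difference is given. The arrays did not measure splicing, cleavage or phosphorylation, by which these sensors act.

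Counted over all roles, 20 of the 40 compared genes had groups that did not overlap (33.4% of all tested), 17 of them with the SA-H arrays below (20.3% of all tested). The other 3 were Hspa5, Sec61a1 and Sec61b, with the SA-H arrays above (13.2% of all tested). Of the 40 genes, 34 were well above background on all 6 arrays. With each gene set relative to its own mean over the arrays, the median of the 40 was 0.22, 0.04 and 0.20 in the MOD group against −0.22, −0.21 and −0.03 in the SA-H group. SA-H array 6 was the nearest to the MOD arrays, and SA-H array 4 held the lowest isomerases, at −0.85.

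**Figure D3:**
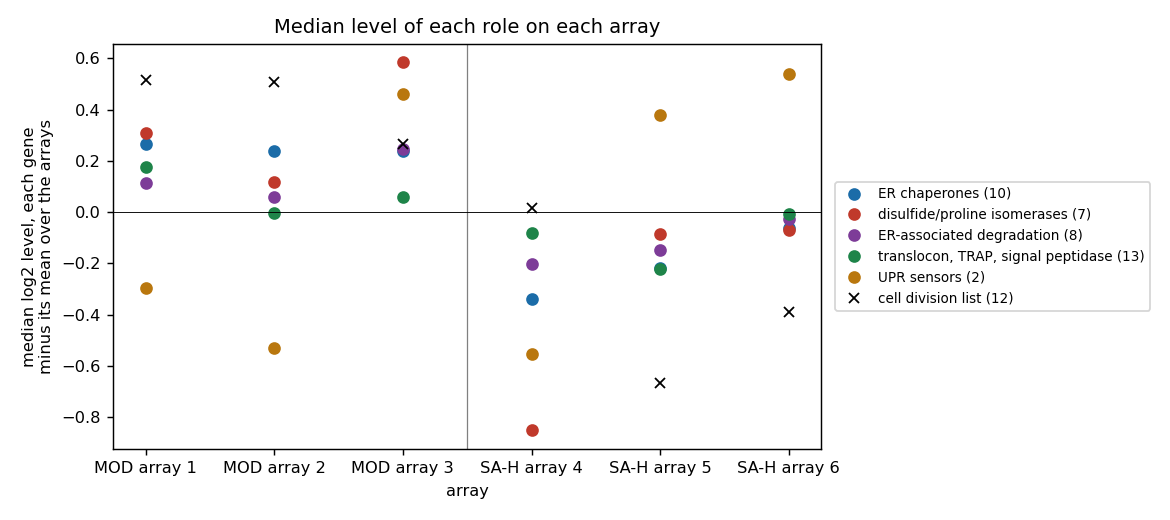
Median of each role on each array, with every gene relative to its mean over the arrays on the log2 scale, and the cell division markers as crosses. The isomerases stand at −0.85 on SA-H array 4, and on SA-H arrays 5 and 6 the 2 compared sensors stand above the other roles.

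The genes that carry the ER stress response element had differences of both signs. All 10 were compared, 2 were lower (Calr and Dnajc3, against 12.1% of all tested) and 0 were higher (11.7% of all tested). Their median difference was −0.43, and 8 had groups that did not overlap (33.4% of all tested). Of those 8, 7 had the SA-H arrays below (20.3% of all tested) and Hspa5 had them above. Of the 26 genes in the promoter table without the element, 23 were compared, 4 were lower, and the median was −0.23. Groups did not overlap for 8 of these 23, 7 of them with the SA-H arrays below. The 26 include Dnajb11 and Herpud1, which hold the second form, and only exact matches were searched for. Hspa5 and Calr hold the same element, in the stretches shown above, and their differences were 0.79 and −1.26. The difference between carriers and the others was not tested.

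**Figure D4:**
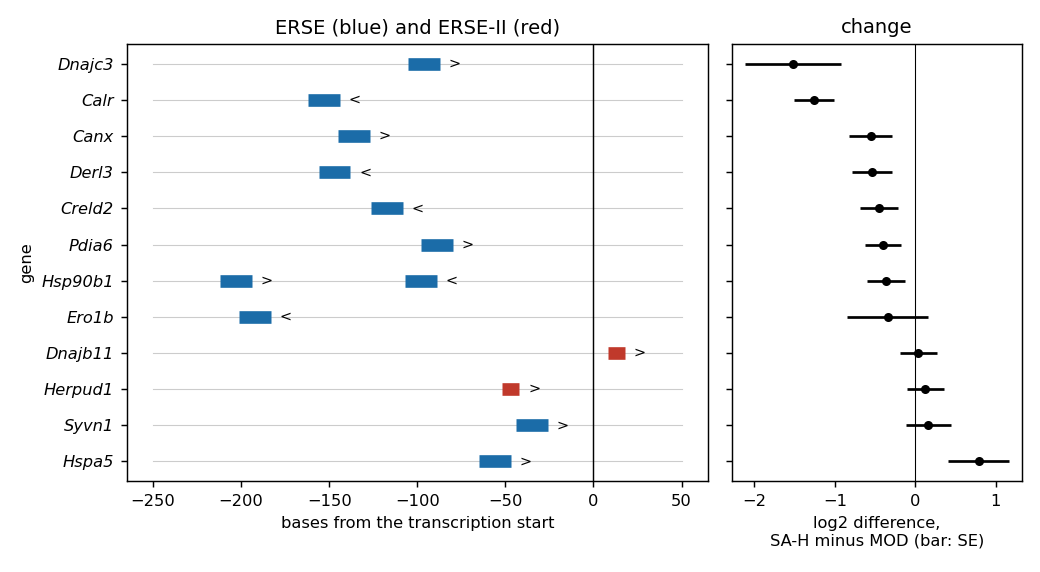
Left, place of the ER stress response element (ERSE, blue) and of its second form (ERSE-II, red) in bases from the transcription start, with an arrowhead for the strand; right, log2 difference, SA-H minus MOD, of the same 12 genes with the standard error as a bar. The genes are ordered by difference, from Dnajc3 (−1.52) to Hspa5 (0.79), which hold the element at bases −105 to −87 and −65 to −47.

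A wider list of 92 other genes of the same route held 80 that could be compared, of which 14 were lower (17.5%, against 12.1% of all tested), 4 were higher (5%, against 11.7%), and 50 had a difference below 0 (51.2% of all tested). Their median difference was −0.22. The transcription factor Xbp1 stood at 3.76, 3.65 and 3.75 in the MOD group and at 2.42, 2.75 and 3.11 in the SA-H group. The groups were well apart, and the difference was −0.96 (SE 0.26, limma adjusted p = 0.101). Atf4, the factor downstream of Eif2ak3, differed by 0.34 and Ddit3 (CHOP), its target in lasting stress, by 0.19. Neither passed the limit in this comparison. With the mean of its probes Atf4 was lower and passed it (−0.73, limma, unadjusted p = 0.024). It was also lower past the limit in the authors' value table (−0.60, limma, unadjusted p = 0.008). Its sign turned too with quantile normalization (−0.098) and without SA-H array 4 (−0.20), where the limit was not passed.

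Of the 11 compared genes listed as factors of the unfolded protein response, 4 were lower and 0 higher. Beside Xbp1 these were Eif2a at −1.50, Nfyb at −1.12, a subunit of NF-Y, and Yod1, a deubiquitinase of ER-associated degradation. Eif2a is an initiation factor other than the substrate of Eif2ak3, and its spot on SA-H array 4 was not well above background. That substrate, Eif2s1, is in the same list, differed by 0.20 and did not pass the limit. Yod1 stood at 1.69, 1.45 and 1.45 against −0.99, −0.15 and −0.10, a difference of −1.94 (SE 0.31). N-glycosylation and glycan checking held 5 falls and 1 rise among 16 compared genes, with a median of −0.69. The 5 falls were Rpn1 (−0.76), Ostc (−0.96) and Tusc3 (−0.81) of the oligosaccharyltransferase, and the cargo receptor Lman1 (−0.78) with its partner Mcfd2 (−0.79). The rise was Uggt1 (0.79), which tags misfolded glycoproteins for another round with calreticulin and calnexin. Eif2a, Eif2s1, Ostc, Tusc3, Mcfd2 and Uggt1 were named after their values were seen.

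Signal recognition and targeting held 2 falls and 0 rises among 10 compared genes, Srp72 at −0.93 and Srp68 at −0.83, both subunits of the signal recognition particle. Other folding genes held 1 fall and 1 rise among 13. The fall was Kdelr2 at −1.15, a receptor that returns ER proteins from the Golgi, whose spot on SA-H array 4 was not well above background. The rise was the disulfide isomerase Pdia5 at 1.44, for which SA-H array 5 was an outlier spot and which turned to −0.03 in the authors' value table. Other degradation genes held 1 fall and 1 rise among 14, with Ube2j1, a ubiquitin-conjugating enzyme, at −0.68 and Vcp, the motor that pulls proteins out of the membrane, at 0.95. Transport from the ER to the Golgi held 1 fall and 1 rise among 16 and a median of 0.02, with Sar1b, the coat GTPase, at −0.76 and the cargo receptor Tmed9 at 0.64. The signs of Vcp (−0.020) and Tmed9 (−0.20) also turned in that table. Several falls kept their sign there without passing the p limit, namely Nfyb (−0.041), Srp68 (−0.091), Srp72 (−0.31), Lman1 (−0.48) and Sar1b (−0.43). Xbp1, Yod1, Rpn1, Kdelr2 and Ube2j1 were lower past the limit in that table. The groups of Srp68 overlapped, and Srp72 did not pass with the mean of its probes (−0.43). Srpra and Hm13 matched no probe.

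The arrays also differed in signal. The 75th percentile of the signal was lowest on SA-H array 4 (220, against 433 to 868 on the others), and 43.1% to 73.9% of spots were well above background. Pearson correlations between arrays ran from 0.838 (MOD array 3 with SA-H array 4) to 0.974 (MOD arrays 1 and 3). They did not follow the groups throughout. MOD arrays 2 and 3 correlated at 0.934, below MOD array 2 with SA-H array 5 (0.960) and MOD array 3 with SA-H array 6 (0.947). MOD arrays 1 and 3 came from the same slide scan, as did MOD array 2 and SA-H array 4. Leaving out SA-H array 4 left 8 lower genes among the 40, 7 of them the same (13.8% of all tested were lower). Leaving out MOD array 1 or MOD array 3 left 3 lower genes each, Calr, Pdia3 and Ssr2 in both cases, which is 7.5% of the 40. Of all tested, 5.42% were lower without MOD array 1 and 7.72% without MOD array 3, so that the share of the ER genes was then close to that of all tested. These 3 genes passed the p limit in all 16 alternatives with a test, against 13 for Dnajb9, 11 for P4hb, 7 for Ssr1, 7 for Derl1 and 9 of 15 for Dnajc3.

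The arrays were scanned on 3 days, of which the first held MOD arrays 1 and 3 and SA-H array 6, and the second MOD array 2 and SA-H array 4. The third day held SA-H array 5 alone and gives no value. Within the first day 27 of the 40 genes had a difference below 0 (48.8% of all tested), with a median of −0.19. Within the second day it was again 27 of the 40 (46.5% of all tested), with a median of −0.35. Calr differed by −1.04 and −1.57 within these days and Hspa5 by 0.70 and 1.45, signs that are fixed by groups that do not overlap. With scan day as a block in the fit, 6 of the 40 genes were lower (15%, against 12.6% of all tested), all of them among the 8, and Derl1 and Ssr1 no longer passed.

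In the authors' value table, which is on a log2 scale with an unstated derivation, 28 of the 40 genes were lower, all 8 among them (16.1% of all tested). At an adjusted p under 0.05 in limma, 15 were lower there (6.99% of all tested). Of the 8 genes 5 passed that limit, and Dnajc3, P4hb and Ssr1 did not. Of the 12 genes with a positive difference above, 10 were negative there. Calr differed by −0.87 in that table and Hsp90b1 by −1.14. The columns of the table matched the scanner values of the same array best for 3 of the 6 arrays, by correlation of the deviations from gene means. The column of MOD array 3 correlated at −0.28 with its own array and best with SA-H array 4 (0.29), of the other group. Those of SA-H arrays 4 and 5 matched best with another SA-H array. The cause of this was not tested.

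**Figure D5:**
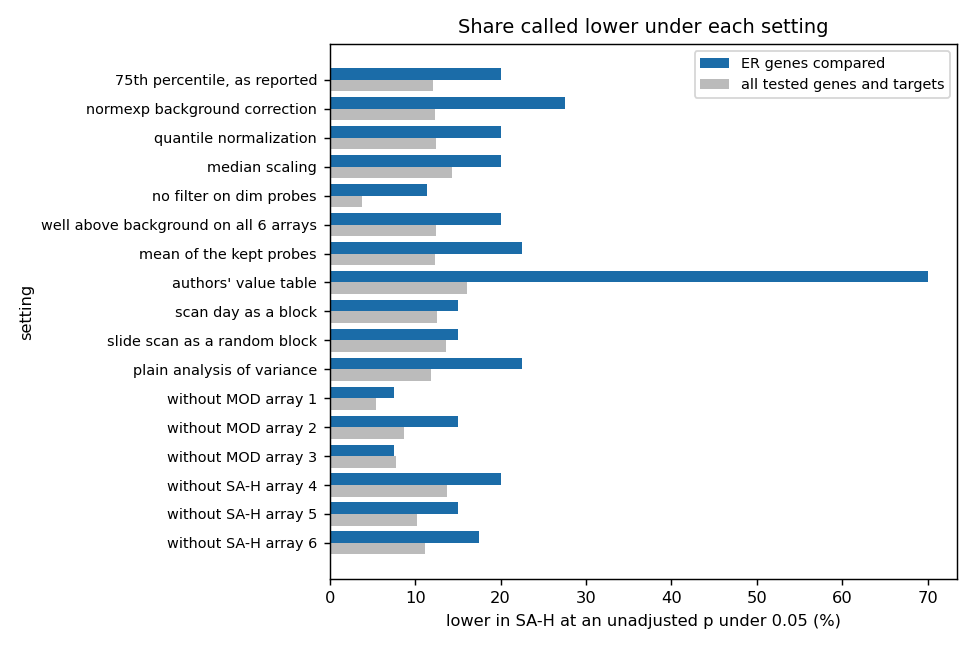
Percent of genes with an SA-H level below MOD and an unadjusted p under 0.05, under each setting of the analysis, for the ER genes compared (blue) and for all tested genes and targets (grey). The share of the ER genes was 20% as reported, 7.5% without MOD array 1 or MOD array 3, and 70% in the authors' value table.

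Plasma cells are the main antibody-secreting cells of the spleen, and their markers were set beside the ER genes. In bulk tissue, fewer cells of a type and less RNA per cell cannot be told apart. Of 11 compared plasma cell markers 1 was lower (Xbp1, which is also in the list of factors above), 0 were higher, and the median difference was −0.43. Their summed level, on the log2 scale, was 6.45 to 6.78 on the MOD arrays and 5.51 to 6.61 on the SA-H arrays, with SA-H array 4 the lowest and SA-H array 6 at the level of MOD array 1. The joining chain of antibodies, Jchain, stood at 5.38, 5.29 and 5.54 against 3.80, 5.09 and 5.36. The ER protein Mzb1 stood at 3.08, 2.88 and 3.38 against 1.45, 2.70 and 2.79. Mzb1 and another marker, Txndc5 (−0.43), are also among the other folding genes of the wider list. Differences were negative for 9 of the 11 markers and positive for 2, Prdm1 (0.95) and Eaf2 (0.15). Sdc1 was well above background on 1 array of each group.

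Markers of other cell types differed as well. The summed level of B cell markers was 6.97 to 7.31 in the MOD group and 7.03 to 7.34 in the SA-H group. The median differences were −0.08 for B cells and −0.02 for T cells. B cell markers held 0 falls and 1 rise, of 2.01, among 12, and T cell markers 0 falls and 0 rises among 12. Cell division genes held 7 falls among 12 and a median of −0.96, with 3 positive differences. Adipocyte markers held 5 falls among 7 and −2.38, and erythroid markers 5 falls among 12 and −0.70. Summed levels were 7.35 to 7.46 against 6.54 to 7.73 for cell division and 3.27 to 3.81 against 2.44 to 2.61 for adipocytes. For erythroid markers they were 8.34 to 8.66 against 7.79 to 8.86. SA-H array 4 held the highest sum of all arrays for cell division and for erythroid markers. Red pulp macrophage markers held 1 fall and 1 rise among 9, with summed levels of 6.41 to 6.76 against 5.55 to 6.48, and neutrophil markers 2 falls and 1 rise among 11, with 8.17 to 8.60 against 8.17 to 9.77. Of 18 markers of the exocrine pancreas, a neighbouring tissue rich in ER, 1 could be compared, and Pnliprp1, Cela2a and Cuzd1 were not well above background on any array. The summed levels were 0.26 to 1.15 in the MOD group and 0.78 to 1.36 in the SA-H group. Of the liver markers 3 of 11 could be compared, with summed levels of 3.15 to 3.37 and 2.92 to 3.14. The part of these cell types in the differences of the ER genes was not tested.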

How the data were processed

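The deposited intensity values (processed signal) come from Agilent Feature Extraction (11.0.1.1 per the submitters' processing notes), which per the file headers subtracts background; arrays were not scaled to each other. A second deposited file, the value table, is on the log2 scale; its centring and derivation are not given in the sources used here. Each column has a median of 5.34, and the deviations from gene means matched best with the same array for 3 of 6 columns, so that it served as an alternative only.

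Signals were taken as log2 minus the 75th percentile of the array over 43020 spots apart from controls. Outlier spots were left out (172 to 634 an array), and 0 spots were saturated. Of 39429 probes, 27234 (69.1%) were named through RefSeq. Probes had to be called well above background by the scanner software on each of the 3 arrays of at least 1 group, and the brightest of these stood for its gene. This gave 14957 genes and unnamed targets. The p-values of other probes of a gene come from a fit of all 17363 probes that met this rule. A missing outlier spot was left out of the fit. SA-H and MOD were compared in R 4.3.3 with limma 3.58.1, with Benjamini-Hochberg adjustment; the limits were an unadjusted p under 0.05 and a fold of 2. The number of arrays limits the precision. Normexp correction (offset 50) used median signals, since the files hold no mean signal column. The study's methods name analysis of variance for its other measurements, and it was an alternative.

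The listed genes, the wider lists and the markers were chosen with earlier results of these data known. Values on every array are given for genes with an unadjusted p under 0.05, the sensors, Hspa5 and the gene with the smallest p in each role; of the wider list, Xbp1, Atf4, Ddit3 and up to 2 genes of each list past the limit are named with their difference. Per-array values of other genes, and other names in the wider list, were chosen after values were seen. The fit was tested on simulated data. Tables and figures were made with Python 3.11.15, pandas 2.3.3, numpy 2.4.6 and matplotlib 3.10.9.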

Additional observations from a re-analysis of the deposited data

How the results depend on the processing

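The count of 8 lower genes among the 40 became 5 of 44 without a filter on dim probes (3.76% of all tested lower) and 28 in the authors' value table (70%, against 16.1% of all tested). There, 15 of the 40 were lower at an adjusted p under 0.05 in limma (6.99% of all tested), 5 of the 8 genes among them. Its differences correlated with those used here at 0.31 across all tested genes, and the cause was not tested. The count was 3 to 8 with 1 array left out, and 6 to 11 under the other alternatives. No paired analysis was possible because the sample labels give the groups different replicate numbers. The count of 0 higher genes became 1 with normexp correction and 1 with a random block for slide scan (both Hspa5), 2 with scan day as a block (Hspa5 and Sec61a1), and 0 to 1 with 1 array left out.

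The median of −0.33 moved to −0.64 with scaling to the array median, −0.59 in the value table, −0.20 with scan day as a block and −0.19 within the first scan day, and ranged from −0.39 to −0.23 with 1 array left out. Scaling to the median shifted all genes, leaving the median of the 40 0.31 below that of all tested. It made 64.9% of all calls falls, against 50.8%. Among the other genes of the route, the 14 falls became 28 in the value table and 5 to 15 with 1 array left out, 5 of them without MOD array 1 and 8 without MOD array 3. The 4 rises became 1 with median scaling, 1 without the filter, 9 with scan day as a block, 7 with the slide scan block, 2 by analysis of variance and 1 to 7 with 1 array left out. The sign of Atf4 turned with the mean of its probes (−0.73) and in the value table (−0.60), both past the p limit. It also turned with quantile normalization (−0.098) and without SA-H array 4 (−0.20). In the value table signs turned for Pdia5 (−0.026), Vcp (−0.020) and Tmed9 (−0.20). Nfyb, Srp68, Srp72, Lman1 and Sar1b kept their sign there and no longer passed the p limit. In that table signs also turned for 10 of the 12 listed genes with a positive difference, among them Hspa5 (−0.23), Sec61a1 (−0.50), Eif2ak3 (−0.23) and Atf6 (−0.43). The causes were not tested. At an adjusted p under 0.05, where 0 of all tested passed (3566 did unadjusted), 1161 passed with scan day as a block, 1054 with median scaling, 358 with normexp correction, 151 with the random block, 1767 in the value table and 0 by analysis of variance. On SA-H array 4, with the lowest signal, Dnajc3, Sel1l, Sec63 and Atf6 were not well above background.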
